A study of Homo sapiens with 8 samples.

Results

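The genes described here are YAP1 and WWTR1 (the gene of TAZ), the DNA-binding partners TEAD1 and TEAD4, and 6 genes that YAP and TAZ are known to switch on: CCN1, CCN2, ANKRD1, AMOTL2, LATS2 and AXL. They were taken by their symbols from the deposited count table of 32803 genes. All 10 symbols were rows of that table, so no older alias was needed, and all 10 passed the filter on low counts that kept 16221 genes for testing.

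RNA-seq of total RNA compared PARP inhibitor-resistant ovarian cancer cells with the cells they came from, in 2 BRCA1 states. UWB1.289 is a human ovarian cancer line that lacks functional BRCA1, a DNA break repair protein, and UWB1.289+BRCA1 is the same line with BRCA1 restored. The 4 groups were Olres-UWB1.289+BRCA1 at passage 45 (resistant proficient), UWB1.289+BRCA1 at passage 10 (parental proficient), Olres-UWB1.289 at passage 56 (resistant deficient) and UWB1.289 at passage 29 (parental deficient). Each group had 2 libraries (n = 2 throughout), and all cells grew in standard medium without drug. Resistance and passage changed together in both BRCA1 states and cannot be told apart, and each resistant line is 1 derivative. Passage also differed between proficient and deficient cells, at 10 against 29 in parental and 45 against 56 in resistant lines. BRCA1 state and passage therefore cannot be told apart either. The labels do not say whether replicates were separate cultures, and the spread behind each p-value may therefore be technical alone.

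YAP and TAZ are transcriptional coactivators without a DNA-binding domain of their own, which reach their target genes through TEAD factors. The Hippo kinase cascade, in which MST kinases (STK3, STK4) act on LATS1 and LATS2, phosphorylates YAP and TAZ and keeps them out of the nucleus. CCN1, CCN2 and ANKRD1 are the usual transcript readouts of nuclear YAP and TAZ, while AMOTL2 and LATS2 are targets that feed back on them. Regulation is largely by phosphorylation and localisation, neither of which RNA counts measure. YAP is widely studied as a growth-promoting factor in ovarian carcinoma.

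TEAD factors bind DNA at the core letters GGAATG, which read CATTCC on the other strand, so promoter sequences are shown for the targets whose levels are described most closely below. RefSeq promoter windows of GRCh38.p14 (250 bases before to 50 after a start) were found for 7 of the 10 genes, over 10 windows. TEAD1, TEAD4 and CCN1 had none. Of all 35116 windows of this length, 14.03% held GGAATG on either strand, 1.373% at least 2 times and 0.1281% at least 3 times. The core stood in a window of 6 of the 7 genes, beside 16.73% of all 27305 genes with a window. CCN2 held it 3 times, first letter at 169, 104 and 95 bases before the start. ANKRD1 held it at 220 and 128 bases before the start, YAP1 at 162, and LATS2 at 10 bases after the start. AXL held it at 212 and AMOTL2 at 69 bases before the start, each at the downstream of its 2 starts. The upstream windows of AXL and AMOTL2, and the 2 WWTR1 windows, held none. The AP-1 letters TGANTCA, read on both strands and overlapping no GGAATG match in these windows, occurred in ANKRD1 at 195 bases before the start, and in 7.709% of all windows. The 250 bases before the start are printed for CCN2 (chr6:131951373-131951622, minus strand) and ANKRD1 (chr10:90921088-90921337, minus strand), both higher in resistant cells of both backgrounds, and for AMOTL2 (chr3:134374448-134374697, minus strand) and AXL (chr19:41226505-41226754, plus strand), which moved in opposite directions in the 2 backgrounds. For AMOTL2 and AXL the printed start is the downstream start, and the upstream window held no match. Capitals mark GGAATG or CATTCC, and TGATTCA in ANKRD1. A match describes letters and is not evidence of a bound site.
CCN2: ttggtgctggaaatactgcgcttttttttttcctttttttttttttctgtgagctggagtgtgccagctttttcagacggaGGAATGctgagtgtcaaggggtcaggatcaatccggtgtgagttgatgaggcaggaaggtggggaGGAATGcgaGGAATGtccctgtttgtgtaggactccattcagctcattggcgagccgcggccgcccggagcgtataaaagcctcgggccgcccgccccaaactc
ANKRD1: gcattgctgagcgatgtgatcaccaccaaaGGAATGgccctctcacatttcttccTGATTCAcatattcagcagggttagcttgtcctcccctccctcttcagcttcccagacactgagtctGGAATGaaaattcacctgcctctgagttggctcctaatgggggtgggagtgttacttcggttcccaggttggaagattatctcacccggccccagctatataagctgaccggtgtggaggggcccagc
AMOTL2: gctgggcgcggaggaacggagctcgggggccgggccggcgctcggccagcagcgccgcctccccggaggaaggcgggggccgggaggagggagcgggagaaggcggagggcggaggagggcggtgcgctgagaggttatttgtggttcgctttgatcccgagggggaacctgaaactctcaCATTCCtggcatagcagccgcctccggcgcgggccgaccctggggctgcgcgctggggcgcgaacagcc
AXL: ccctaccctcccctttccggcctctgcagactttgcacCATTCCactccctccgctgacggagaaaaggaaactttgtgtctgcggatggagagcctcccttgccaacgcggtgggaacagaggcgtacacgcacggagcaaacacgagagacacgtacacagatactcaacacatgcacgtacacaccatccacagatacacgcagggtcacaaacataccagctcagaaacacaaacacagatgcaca

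The libraries held 24094821 to 34394107 counts. BRCA1 itself, the gene that separates the backgrounds, averaged 2271 ± 134 CPM in resistant proficient and 202 ± 14.4 CPM in parental proficient cells, against 34.7 ± 0.0847 CPM in resistant deficient and 35.6 ± 0.647 CPM in parental deficient cells (SD). CPM are counts scaled to library size, here with TMM factors. In proficient cells BRCA1 level and resistance changed together and cannot be told apart. Of 9 ovarian carcinoma markers, 9 reached 1 CPM in both resistant proficient libraries and 8 did in each other group, where WT1 was the one near 0. Their summed level was 4311 to 4844 CPM in resistant proficient, 3742 to 4127 CPM in parental proficient, 5506 to 6609 CPM in resistant deficient and 7791 to 8184 CPM in parental deficient libraries. Summed markers of fibroblasts (6 genes, 11.2 to 70.9 CPM), leukocytes (5 genes, 5.22 to 28.4 CPM) and endothelium (4 genes, 3.73 to 49.9 CPM) were far lower in all 8 libraries. The fibroblast gene COL1A2 averaged 28.5 CPM in resistant proficient, 46.4 CPM in parental proficient, 1.01 CPM in resistant deficient and 51.6 CPM in parental deficient cells. THY1 averaged 0.305 to 12.6 CPM and COL1A1 1.01 to 6.04 CPM over the groups, while DCN, LUM and PDGFRB had at most 3 counts over a group. Endothelial sums were 3.73 to 8.70 CPM in proficient and 43.5 to 49.9 CPM in deficient libraries, and their part in the results on BRCA1 state was not tested. Most of that difference lay in 1 gene, CDH5. It averaged 1.66 CPM in resistant proficient, 0.501 CPM in parental proficient, 38.1 CPM in resistant deficient and 35.4 CPM in parental deficient cells. PECAM1, VWF and KDR averaged 0.836 to 4.88 CPM over the groups.

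In all comparisons except resistant over parental proficient cells, fold changes followed transcript GC content. Spearman's rho between log2 fold change and GC content over 15662 genes was 0.456 for resistant over parental deficient cells, -0.440 for proficient over deficient parental cells and -0.515 for proficient over deficient resistant cells, against 0.0821 for resistant over parental proficient cells. For the difference between the 2 resistance changes it was -0.297. This is a correlation across genes, which are not independent replicates. Among the 10 genes, WWTR1 (40.9% GC), TEAD1 (41.3%), ANKRD1 (43.3%) and YAP1 (43.5%) have GC-poor transcripts, and AMOTL2 (56.7%) and TEAD4 (60.4%) GC-rich ones. Values after removal of each library's GC trend are given for many results where they end a call, turn a direction or move a value by over 1.5 times. They are not given for all, so a missing value does not mean that a result was stable. The cause of the trend was not tested.

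Between 8 and 10 of the 10 genes passed an adjusted p of 0.05 in each pairwise comparison, in data where a majority of all genes did. Resistant over parental proficient cells had 2 of the 10 higher and 6 lower, beside 25.9% higher and 27.8% lower of all genes tested. Resistant over parental deficient cells had 4 higher and 4 lower, beside 28.9% and 27.0%. Proficient over deficient cells had 7 higher and 3 lower among parental cells, beside 32.3% and 30.1%, and 4 higher and 5 lower among resistant cells, beside 36.3% and 37.5%. Calls at least 2-fold in size were 1 higher and 3 lower in resistant proficient over parental proficient cells, beside 10.4% and 9.76%. In resistant over parental deficient cells 0 of the 10 were called at 2-fold, beside 12.2% higher and 7.38% lower of all genes, although 8 passed the adjusted p without the size limit (edgeR). At 2-fold, proficient over deficient cells had 0 higher and 1 lower among parental lines, beside 10.5% and 14.2%, and 0 higher and 2 lower among resistant lines, beside 17.4% and 23.0%. The libraries of the groups compared did not overlap for 8 genes in the proficient resistance comparison (76.4% of all genes), 8 in the deficient one (78.7%), 10 between parental lines (83.0%) and 9 between resistant lines (86.5%). These shares are near those over all genes. The median log2 fold change of the 10 genes was -0.43 in the proficient and -0.08 in the deficient resistance comparison, beside -0.00 and 0.03 over all genes.

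**Figure D1:**
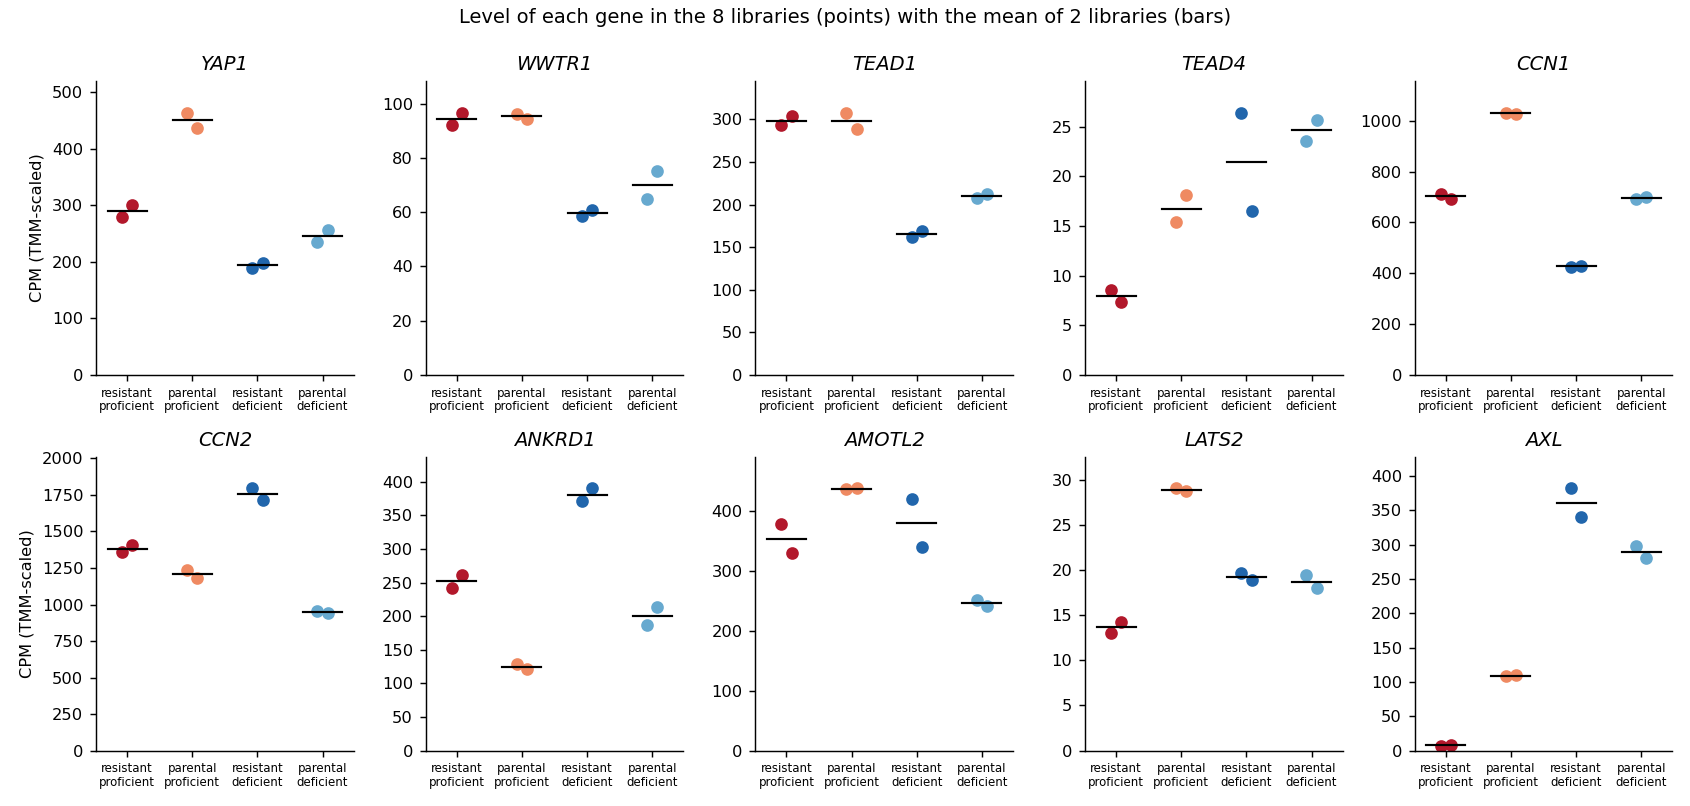
Level of each gene in CPM (TMM-scaled, linear axes from 0) in the 8 libraries, shown as points, with the mean of the 2 libraries of each group as a bar. YAP1, WWTR1, TEAD1 and CCN1 are lowest in resistant deficient cells, AXL is lowest in resistant proficient cells at 7.32 and 8.41 CPM, and CCN2 and ANKRD1 are highest in resistant deficient cells.

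YAP1 was lower in resistant cells of both backgrounds and higher in proficient than in deficient cells. It stood at 279.6 and 300.5 CPM in resistant proficient cells and at 464 and 437 CPM in parental proficient cells. It stood at 189 and 198 CPM in resistant deficient cells and at 234 and 256 CPM in parental deficient cells. No groups overlapped, and the order ran from parental proficient through resistant proficient and parental deficient to resistant deficient cells. The log2 fold change with resistance was -0.63 ± 0.07 in proficient cells (SE, edgeR quasi-likelihood adjusted p = 1.75e-05) and -0.34 ± 0.07 in deficient cells (adjusted p = 0.00171). Fewer cells that express a gene and less of its RNA per cell cannot be told apart in such bulk libraries. With the GC trend removed, the deficient value shrank to -0.12 (adjusted p = 0.0234), while the proficient value was -0.63. The restored BRCA1 state went with a log2 difference in YAP1 of 0.88 ± 0.07 between parental lines (adjusted p = 1.27e-06) and 0.58 ± 0.07 between resistant lines (adjusted p = 1.63e-05), the second of which was 0.13 without the GC trend (adjusted p = 0.00958).

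WWTR1, which encodes the YAP paralog TAZ, differed with BRCA1 state more than with resistance. Its levels were 92.2 and 96.8 CPM in resistant proficient, 96.4 and 94.3 CPM in parental proficient, 58.7 and 60.8 CPM in resistant deficient and 65.0 and 75.1 CPM in parental deficient cells. The 2 proficient groups overlapped, and both lay above both deficient groups. In proficient cells its log2 fold change with resistance was -0.01, with a 95% interval of -0.24 to 0.21, and the sign turned under 5 of the other settings and without some libraries. In deficient cells WWTR1 fell by 0.23 ± 0.08 (adjusted p = 0.0307), a call that DESeq2 (adjusted p = 0.0589) and the fit of the 2 groups alone (0.0519) did not make. The same call was lost without the first resistant deficient library (0.0641) or the second parental deficient library (0.216). The log2 difference of proficient over deficient cells was 0.44 ± 0.08 in parental lines (adjusted p = 0.000575) and 0.66 ± 0.08 in resistant lines (adjusted p = 1.91e-05). Without the GC trend these differences were 0.11 (adjusted p = 0.113) and 0.07 (adjusted p = 0.263), and the deficient resistance value was 0.03 (adjusted p = 0.702). The antisense transcript WWTR1-AS1 had 2 to 24 counts per library, against at least 1631 for WWTR1.

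TEAD1, a TEAD factor found in most tissues, did not differ detectably with resistance in proficient cells, and was lower with resistance in deficient cells. It measured 294 and 303 CPM in resistant proficient cells, both between the 308 and 289 CPM of parental proficient cells. It measured 162 and 169 CPM in resistant deficient cells, below the 208 and 212 CPM of parental deficient cells. The resistance change was 0.00 (95% interval -0.17 to 0.17) in proficient cells and -0.34 ± 0.06 in deficient cells (adjusted p = 0.000715), and the deficient value was -0.09 without the GC trend (adjusted p = 0.0626). TEAD1 was higher in proficient than in deficient cells, by 0.51 ± 0.06 on the log2 scale in parental lines (adjusted p = 2.92e-05) and 0.85 ± 0.06 in resistant lines (adjusted p = 3.00e-07). Without the GC trend these were 0.18 (adjusted p = 0.000552) and 0.28 (adjusted p = 3.89e-06), with the call kept.

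TEAD4, a TEAD factor with known roles in the early embryo and in cancers, ran the other way across BRCA1 state. It stood at 8.54 and 7.37 CPM in resistant proficient and 15.4 and 18.1 CPM in parental proficient cells. It stood at 26.4 and 16.5 CPM in resistant deficient and 23.6 and 25.7 CPM in parental deficient cells. The 2 resistant deficient libraries lay apart and enclosed the parental deficient ones. TEAD4 fell with resistance in proficient cells by 1.07 ± 0.21 on the log2 scale (adjusted p = 0.00116). The deficient value was -0.20, with a 95% interval of -0.74 to 0.33. Leaving out the first resistant deficient library gave -0.61 (adjusted p = 0.00486), and leaving out the second gave 0.07. With the GC trend removed the deficient value was -0.89 (adjusted p = 1.40e-06). TEAD4 was lower in proficient than in deficient cells by log2 differences of -0.56 ± 0.20 in parental lines (adjusted p = 0.0270) and -1.42 ± 0.21 in resistant lines (adjusted p = 7.27e-05). Neither stayed past the threshold without the GC trend, at 0.08 (adjusted p = 0.548) and -0.19 (adjusted p = 0.194). The parental call was also lost without the first (adjusted p = 0.0576) or second (0.0968) parental deficient library or the first parental proficient library (0.142).

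**Figure D2:**
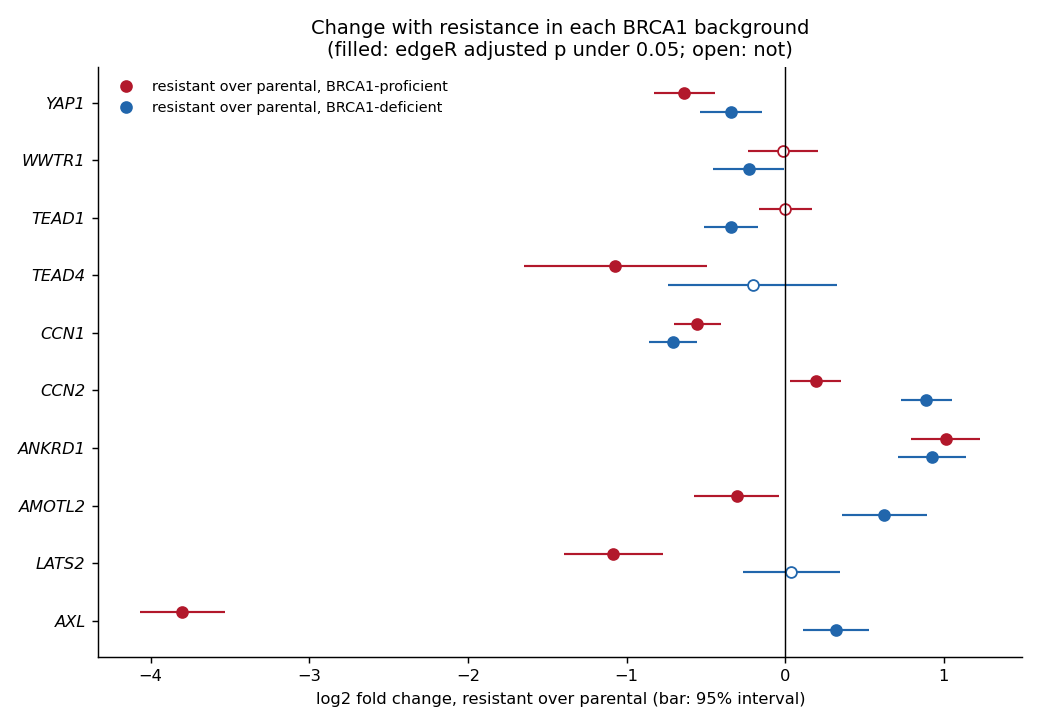
Log2 fold change of resistant over parental cells for each gene, with 95% intervals, in proficient (red) and deficient (blue) cells; filled points passed an adjusted p of 0.05. ANKRD1 lies near 1 in both backgrounds, CCN1 and YAP1 lie below 0 in both, and AXL lies at -3.80 in proficient and 0.32 in deficient cells.

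The 3 classical readouts split with resistance, since CCN1 was lower and CCN2 and ANKRD1 were higher in the resistant cells of both backgrounds. CCN1 encodes CYR61, a secreted matrix-associated protein that binds integrins. It had 712 and 693 CPM in resistant proficient cells, against 1032 and 1028 CPM in parental proficient cells. It had 425 and 428 CPM in resistant deficient cells, against 694 and 699 CPM in parental deficient cells. The replicates lay close together, the groups of each pair were clearly apart, and resistant proficient cells overlapped parental deficient cells. CCN1 fell by 0.55 ± 0.05 on the log2 scale in proficient cells (adjusted p = 7.04e-06) and by 0.71 ± 0.05 in deficient cells (adjusted p = 2.03e-06). In proficient over deficient cells the log2 difference was 0.57 ± 0.05 for parental lines (adjusted p = 5.02e-06) and 0.72 ± 0.05 for resistant lines (adjusted p = 4.13e-07). These 4 values changed by less than 1.5 times without the GC trend.

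CCN2 encodes CTGF, a secreted matrix protein of the same family, and moved against CCN1 with resistance. Its levels were 1358 and 1405 CPM in resistant proficient and 1237 and 1181 CPM in parental proficient cells. They were 1796 and 1718 CPM in resistant deficient and 953 and 942 CPM in parental deficient cells. No groups overlapped, and both resistant groups lay above both parental groups. The rise was 0.19 ± 0.06 on the log2 scale in proficient cells (adjusted p = 0.0152) and 0.89 ± 0.06 in deficient cells (adjusted p = 6.23e-07). The proficient rise was 0.10 without the GC trend (adjusted p = 0.0353) and was lost without the second parental proficient library (0.16, adjusted p = 0.134). Proficient cells were higher than deficient cells among parental lines (0.35 ± 0.06, adjusted p = 0.000277) and lower among resistant lines (-0.35 ± 0.06, adjusted p = 0.000203).

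ANKRD1, a nuclear ankyrin-repeat protein first known from heart muscle and a sensitive YAP readout in culture, was about doubled with resistance in both backgrounds. It stood at 242 and 262 CPM in resistant proficient, against 129 and 121 CPM in parental proficient cells. It stood at 371 and 391 CPM in resistant deficient, against 187 and 214 CPM in parental deficient cells. No groups overlapped. The log2 rise was 1.01 ± 0.08 in proficient cells (adjusted p = 1.19e-06) and 0.92 ± 0.08 in deficient cells (adjusted p = 3.70e-06), a difference of 0.09 with a 95% interval of -0.21 to 0.39. ANKRD1 was lower in proficient than in deficient cells, by log2 values of -0.69 ± 0.08 in parental lines (adjusted p = 1.92e-05) and -0.60 ± 0.08 in resistant lines (adjusted p = 2.92e-05). The resistant value was -1.06 without the GC trend.

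AMOTL2, an angiomotin-family scaffold that binds YAP at cell junctions and restrains it, moved in opposite directions in the 2 backgrounds. It stood at 377 and 329 CPM in resistant proficient cells, below the 436 and 437 CPM of parental proficient cells. It stood at 420.0 and 339 CPM in resistant deficient cells, above the 251 and 241 CPM of parental deficient cells. The 2 resistant groups overlapped, and the parental groups were the highest and the lowest of the 4. AMOTL2 rose by 0.62 ± 0.10 on the log2 scale with resistance in deficient cells (adjusted p = 0.000284), or 0.26 without the GC trend (adjusted p = 4.28e-05). In proficient cells it fell by 0.31 ± 0.10 (adjusted p = 0.0196). That fall was lost with a filter of at least 1 CPM in 2 libraries (-0.26, adjusted p = 0.0527) and without the second resistant proficient library (-0.17, adjusted p = 0.220). It was also lost without the first (0.105) or second (0.0789) parental proficient library or the second parental deficient library (0.0523). Parental proficient cells were higher than parental deficient cells by 0.83 ± 0.10 (adjusted p = 2.42e-05), or 1.29 without the GC trend. Between resistant lines the proficient over deficient difference was -0.10 (95% interval -0.37 to 0.17), and it turned to 0.61 without the GC trend (adjusted p = 2.00e-10).

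LATS2, a Hippo kinase that phosphorylates YAP and TAZ and is itself induced by them, fell with resistance in proficient cells. It stood at 13.01 and 14.28 CPM in resistant proficient cells, against 29.1 and 28.7 CPM in parental proficient cells. It stood at 19.6 and 18.9 CPM in resistant deficient and 19.4 and 18.0 CPM in parental deficient cells, which overlapped. The fall in proficient cells was 1.08 ± 0.11 on the log2 scale, which is 2.12-fold (adjusted p = 1.18e-05). The deficient value was 0.04, with a 95% interval of -0.27 to 0.35. Proficient cells were above deficient cells among parental lines (0.63 ± 0.11, adjusted p = 0.000464) and below them among resistant lines (-0.50 ± 0.11, adjusted p = 0.00202).

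Of the 8 tested neighbours of LATS2, 4 on each side on chromosome 13 in the gene order of RefSeq GRCh38.p14, 5 also fell with resistance in proficient cells, the 2 nearest on either side among them. Of all genes tested, 27.8% fell in that comparison. XPO4, a nuclear export receptor, had 45.04 CPM in resistant proficient against 109 CPM in parental proficient cells (log2 -1.27 ± 0.10, adjusted p = 1.15e-06). EEF1AKMT1, a lysine methyltransferase, had 1.99 CPM in resistant proficient against 5.89 CPM in parental proficient cells (-1.57 ± 0.22, adjusted p = 9.77e-05). SAP18, a subunit of histone deacetylase and splicing complexes, had 54.2 CPM in resistant proficient and 96.1 CPM in parental proficient cells (-0.83 ± 0.08, adjusted p = 5.93e-06). SKA3, a kinetochore protein, had 19.2 CPM in resistant proficient and 44.6 CPM in parental proficient cells (-1.21 ± 0.09, adjusted p = 1.29e-06). MRPL57 followed at -0.40 ± 0.13 (adjusted p = 0.0234), a call lost with DESeq2 (adjusted p = 0.0629) and without any 1 of the 4 proficient libraries (0.0503 to 0.164). IFT88 (-0.06), IL17D (-0.28) and LOC101928764 (0.25) did not pass the test. In deficient cells none of the 8 fell past the threshold with all libraries: XPO4 was at -0.00, SAP18 at 0.02, SKA3 at -0.13 (adjusted p = 0.257) and EEF1AKMT1 at -0.47 (adjusted p = 0.0614), with no overlap between the libraries of its 2 groups. EEF1AKMT1 passed without the second resistant deficient library (-0.66, adjusted p = 0.0318). MRPL57 rose there by 0.56 (adjusted p = 0.00314), a call lost without the second parental deficient library (adjusted p = 0.0623). LOC101928764, at 0.755 CPM in resistant deficient and 0.193 CPM in parental deficient cells, was at 2.02 (adjusted p = 0.0317), a call lost with DESeq2 (adjusted p = 0.0990), with the 2 groups alone (0.0587) and without the second resistant deficient (0.262), second parental deficient (0.246) or first parental proficient library (0.0513). Without the GC trend XPO4 (0.32, adjusted p = 8.74e-05), SAP18 (0.25, adjusted p = 0.000368) and IFT88 (0.74, adjusted p = 0.00316) were called higher in resistant deficient cells. Copy number was not measured, and its part in these levels was not tested.

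**Figure D3:**
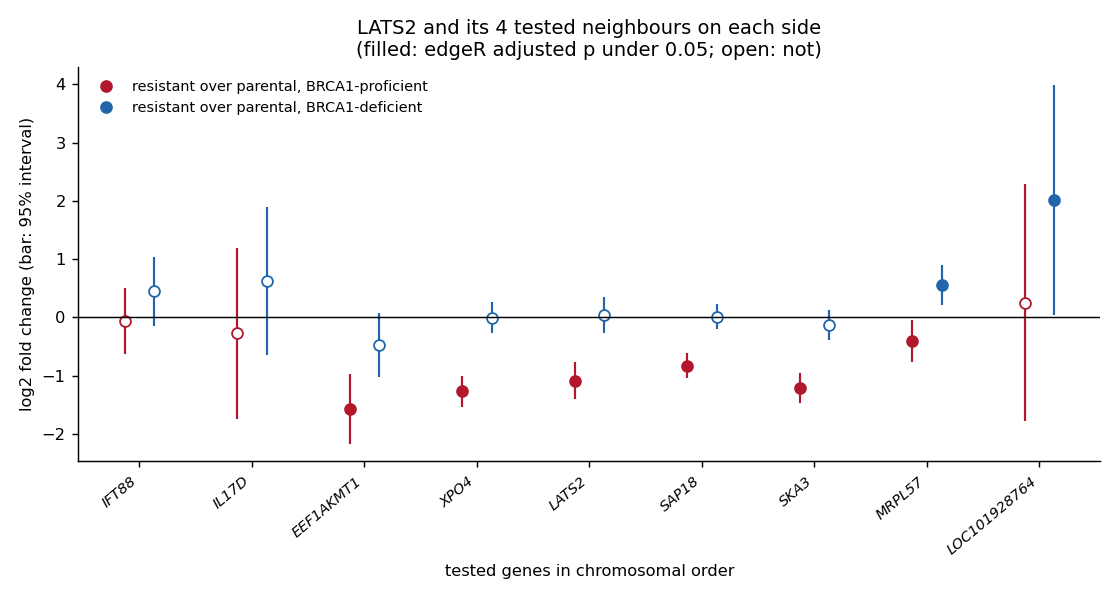
Log2 fold change of resistant over parental cells with 95% intervals for LATS2 and the 4 tested genes on each side, in chromosomal order, in proficient (red) and deficient (blue) cells; filled points passed an adjusted p of 0.05. In proficient cells the 6 genes from EEF1AKMT1 to MRPL57 are filled and below 0, and in deficient cells LATS2, XPO4, SAP18 and SKA3 lie near 0, EEF1AKMT1 at -0.47 without a call, and MRPL57 and LOC101928764 are filled above 0.

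AXL, a receptor tyrosine kinase of the TAM family that is linked to mesenchymal traits and drug tolerance, had the widest span of the 10 genes. It stood at 7.32 and 8.41 CPM in resistant proficient cells, against 109 and 109.8 CPM in parental proficient cells. It stood at 382 and 340.0 CPM in resistant deficient cells, against 298 and 280.5 CPM in parental deficient cells. No groups overlapped, and both deficient groups lay far above both proficient groups. With resistance AXL was 13.9-fold lower in proficient cells (log2 -3.80 ± 0.10, adjusted p = 4.17e-10). In deficient cells it rose by 0.32 ± 0.07 (adjusted p = 0.00384), which became 0.15 without the GC trend (adjusted p = 0.0125) and was lost without the second parental deficient library (0.25, adjusted p = 0.0746). Resistant proficient cells had 46.0-fold less AXL than resistant deficient cells (log2 -5.52 ± 0.10, adjusted p = 8.88e-12). Parental proficient cells had 2.65-fold less than parental deficient cells (log2 -1.40 ± 0.08, adjusted p = 9.08e-08).

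The difference between the resistance changes of the 2 backgrounds was tested as an interaction, proficient minus deficient. Of the 10 genes 1 had a positive and 6 a negative difference past the threshold, beside 21.4% and 25.3% of all genes tested. At 2-fold in size 0 were positive and 2 negative, beside 10.1% and 12.6%. AXL had the largest of the 10 (-4.12 ± 0.12, adjusted p = 1.72e-09), followed by LATS2 (-1.12 ± 0.16, adjusted p = 0.000187), AMOTL2 (-0.93 ± 0.14, adjusted p = 0.000256), TEAD4 (-0.87 ± 0.28, adjusted p = 0.0268) and CCN2 (-0.70 ± 0.08, adjusted p = 4.83e-05). The calls of AXL, LATS2, AMOTL2 and CCN2 held under all other settings. TEAD1 was at 0.35 ± 0.09 (adjusted p = 0.00725) and YAP1 at -0.29 ± 0.10 (adjusted p = 0.0294). Without the GC trend TEAD1 was at 0.10 (adjusted p = 0.150), TEAD4 at -0.27 (adjusted p = 0.195) and YAP1 at -0.51 (adjusted p = 5.65e-07). The YAP1 difference was lost with library totals as the only scaling (-0.24, adjusted p = 0.0609), and leaving out single libraries gave -0.34 to -0.16 for YAP1 and -1.10 to -0.42 for TEAD4, with the YAP1 call lost in 7 of 8 cases and the TEAD4 call in 6. For WWTR1 (0.22, 95% interval -0.10 to 0.53), CCN1 (0.15, -0.06 to 0.36) and ANKRD1 (0.09) no difference was called. WWTR1 (0.28, adjusted p = 0.0459) and CCN1 (0.22, adjusted p = 0.0236) were called with the filter of at least 1 CPM in 2 libraries. CCN1 was also called without the first (0.22, adjusted p = 0.0467) or second resistant deficient library (0.23, adjusted p = 0.0334) and without the second resistant proficient one (0.24, adjusted p = 0.0376).

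Per kilobase of the longest annotated transcript, the secreted target CCN2 had the highest mean level of the 10 genes in all 4 groups. CCN1, also secreted, came second in all but resistant deficient cells, where the nuclear protein ANKRD1 was above it. CCN2 averaged 590 CPM per kb in resistant proficient, 517 in parental proficient, 751 in resistant deficient and 405 in parental deficient cells. CCN1 averaged 307 CPM per kb in resistant proficient, 450 in parental proficient, 186 in resistant deficient and 304 in parental deficient cells. ANKRD1 averaged 127 CPM per kb in resistant proficient, 63.1 in parental proficient, 192 in resistant deficient and 101 in parental deficient cells. YAP1 was above WWTR1 in every group, with YAP1 at 53.7 and WWTR1 at 18.8 CPM per kb in resistant proficient cells, and YAP1 at 35.9 and WWTR1 at 11.9 CPM per kb in resistant deficient cells. TEAD1 was above TEAD4 in every group, with TEAD1 at 35.2 and TEAD4 at 4.71 CPM per kb in resistant proficient cells, and TEAD1 at 19.5 and TEAD4 at 12.7 CPM per kb in resistant deficient cells. LATS2 was the lowest of the 10 genes in every group but resistant proficient, at 3.40 to 5.24 CPM per kb, and in resistant proficient cells AXL, at 1.66 CPM per kb, was below LATS2, at 2.48 CPM per kb. These transcript lengths approximate the gene models counted by the authors, which no source used here gives.

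**Figure D4:**
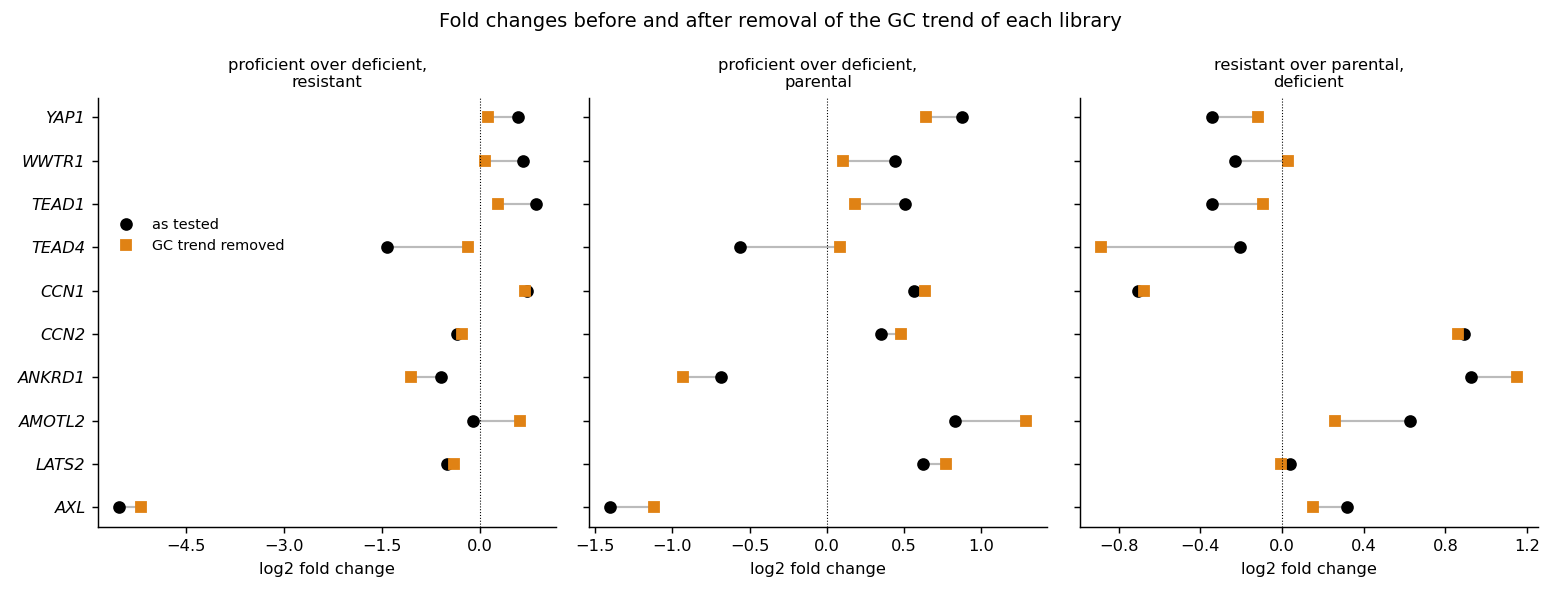
Log2 fold change of each gene as tested (black circles) and after removal of each library's GC trend (orange squares), in the 3 pairwise comparisons that followed GC content. YAP1, WWTR1 and TEAD1 move toward 0 in all 3, TEAD4 moves above or toward 0 in the proficient over deficient panels and down to -0.89 in the third, and CCN1, CCN2 and LATS2 move little.

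Of 16 Hippo kinases and scaffolds, LATS2 included, 3 rose and 10 fell with resistance in proficient cells (median log2 -0.42, against -0.00 over all genes), or 6 rose without the GC trend. Leaving LATS2 aside, 9 of the other 15 fell. Of all genes tested, 25.9% rose and 27.8% fell in that comparison, 28.9% rose and 27.0% fell with resistance in deficient cells, 32.3% were higher and 30.1% lower in proficient over deficient parental cells, and 36.3% were higher and 37.5% lower in proficient over deficient resistant cells. Falls included the MST2 kinase STK3, at 85.5 CPM in resistant proficient and 214 CPM in parental proficient cells (-1.32 ± 0.08, adjusted p = 2.05e-07), and TAOK3, a kinase upstream of MST, at 70.1 CPM in resistant proficient and 150.5 CPM in parental proficient cells (-1.10 ± 0.08, adjusted p = 4.43e-07). NF2, the scaffold Merlin that activates LATS kinases, rose to 104.0 CPM in resistant proficient, against 52.6 CPM in parental proficient cells (0.98 ± 0.09, adjusted p = 4.86e-06). FRMD6, an upstream FERM-domain scaffold, rose to 56.2 CPM in resistant proficient, against 33.1 CPM in parental proficient cells (0.76 ± 0.11, adjusted p = 0.000107). In deficient cells 3 rose and 6 fell with resistance (median -0.13, against 0.03), or 7 rose without the GC trend. NF2 rose there too, with 130.04 CPM in resistant deficient and 65.3 CPM in parental deficient cells (0.99 ± 0.09, adjusted p = 6.37e-06). The scaffold WWC1, known as KIBRA, rose to 618 CPM in resistant deficient cells, against 258 CPM in parental deficient cells (1.26 ± 0.07, adjusted p = 3.33e-07). SAV1, the MST partner Salvador, fell by 0.77 (adjusted p = 5.08e-05) and the MST1 kinase STK4 by 0.59 (adjusted p = 6.98e-05), which was -0.36 without the GC trend.

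Across BRCA1 state the same list had 10 higher and 4 lower in proficient over deficient parental cells (median 0.34, against 0.00), with TAOK3 at 150.5 CPM in parental proficient and 20.7 CPM in parental deficient cells (2.86 ± 0.08, adjusted p = 9.22e-10) and WWC2 at 1.17 (adjusted p = 1.75e-07). MAP4K4 (-0.47, adjusted p = 8.70e-05) and FRMD6 (-0.73, adjusted p = 0.000109, or -1.11 without the GC trend) were lower. Among resistant cells 7 were higher and 7 lower (median 0.00, against -0.02), with TAOK3 again higher in proficient cells (2.34, adjusted p = 1.39e-09), WWC2 at 0.84 (0.37 without the GC trend), and MAP4K4 and WWC1 lower, both at -0.82 (WWC1 -0.43 without the GC trend). Interactions were positive for 2 of the 16 genes and negative for 9, beside 21.4% and 25.3% of all genes tested. The positive ones were FRMD6 (0.61, or 0.35 without the GC trend) and SAV1 (0.49, or 0.27). The negative ones included WWC1 (-0.85 ± 0.10, adjusted p = 6.52e-05) and PTPN14 (-0.60, adjusted p = 0.000216).

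Of 11 junction and polarity genes, AMOTL2 included, 3 rose and 5 fell with resistance in proficient cells (median -0.31, against -0.00). In deficient cells 3 rose and 3 fell (median 0.06, against 0.03). Of all genes tested, 25.9% rose and 27.8% fell in proficient cells, and 28.9% rose and 27.0% fell in deficient cells. AMOT, the founding angiomotin, rose to 274 CPM in resistant proficient, against 99.4 CPM in parental proficient cells (1.46 ± 0.08, adjusted p = 5.95e-08). Its relative AMOTL1 fell to 89.5 CPM in resistant proficient, against 179 CPM in parental proficient cells (-1.003 ± 0.06, adjusted p = 2.66e-07). The atypical cadherin FAT4 stood at 10.04 CPM in resistant proficient and 1.45 CPM in parental proficient cells (2.79 ± 0.22, adjusted p = 1.24e-06). RASSF1, an MST-binding tumour suppressor, stood at 8.54 CPM in resistant proficient and 24.3 CPM in parental proficient cells (-1.51 ± 0.16, adjusted p = 1.27e-05). In deficient cells AJUBA, a LIM protein that inhibits LATS, fell to 212 CPM in resistant deficient, against 389.5 CPM in parental deficient cells (-0.88 ± 0.06, adjusted p = 6.32e-07), and AMOTL1 fell by 0.50 (adjusted p = 7.23e-05). The LIM protein WTIP rose by 1.501 (adjusted p = 6.16e-05). SCRIB, a polarity scaffold, rose by 1.55 ± 0.30 (adjusted p = 0.00126) but was at 0.25 without the GC trend (adjusted p = 0.0616).

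Proficient over deficient parental cells had 7 junction and polarity genes higher and 3 lower (median 0.47), beside 32.3% and 30.1% of all genes. Resistant cells had 5 and 5 (median -0.10), beside 36.3% and 37.5%. AMOT was higher in proficient cells of both pairs, by 1.17 in parental (adjusted p = 3.24e-07) and 2.82 in resistant lines (adjusted p = 2.47e-10), at 274 CPM in resistant proficient against 38.6 CPM in resistant deficient cells. SCRIB was lower, at -3.31 in resistant lines (-1.18 without the GC trend) and -1.17 in parental lines (-0.35 without the GC trend), a call lost without the first parental deficient or first parental proficient library. WTIP was lower in resistant proficient than in resistant deficient cells, at -1.09 (-0.53 without the GC trend), and FAT1 higher, at 1.21. Interactions were positive for 4 genes, with AMOT at 1.65 and FAT1 at 1.02, beside 21.4% of all genes. They were negative for 5, with WTIP at -2.49 and RASSF1 at -1.55 (-0.45 without the GC trend), beside 25.3%.

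Of 9 effectors, TEAD factors and VGLL cofactors, which compete with YAP for TEAD binding, 1 rose and 5 fell with resistance in proficient cells (median -0.40), and 3 rose and 4 fell in deficient cells (median -0.22), or 1 rose without the GC trend. Of all genes tested, 25.9% rose and 27.8% fell in proficient cells, and 28.9% rose and 27.0% fell in deficient cells. YAP1, WWTR1, TEAD1 and TEAD4 are 4 of the 9. Of the other 5, 1 rose and 3 fell in proficient cells (median -0.40), and 3 rose and 1 fell in deficient cells (median 0.64). VGLL1 fell in both, at 7.02 CPM in resistant proficient against 36.6 CPM in parental proficient cells (-2.38 ± 0.13, adjusted p = 7.77e-08) and 1.35 CPM in resistant deficient against 13.5 CPM in parental deficient cells (-3.32 ± 0.15, adjusted p = 6.48e-08). VGLL4, a repressive cofactor, rose in both, by 0.61 ± 0.09 in proficient (adjusted p = 0.000145) and 1.29 ± 0.09 in deficient cells (adjusted p = 1.03e-06). VGLL3 fell by 1.01 in proficient cells (adjusted p = 0.000403). TEAD3 rose by 0.67 in deficient cells (adjusted p = 0.000628), or 0.07 without the GC trend (adjusted p = 0.542). In proficient over deficient parental cells 8 of the 9 were higher and 1, TEAD4, lower (median 0.54, against 0.00), beside 32.3% and 30.1% of all genes. Without the GC trend 6 were higher and 0 lower, with TEAD4 at 0.08. Among resistant cells 5 were higher and 2 lower (median 0.30, against -0.02), beside 36.3% and 37.5% of all genes. Of the 5 that are not YAP1, WWTR1, TEAD1 or TEAD4, 2 were higher there and 1 lower (median -0.11). TEAD3, at -0.60 between resistant lines, turned to 0.53 without the GC trend. VGLL1 was at 1.44 in the parental and 2.38 in the resistant pair. Interactions were positive for 2 and negative for 6 of the 9, beside 21.4% and 25.3% of all genes. VGLL1 was at 0.94, VGLL4 at -0.69 and TEAD3 at -1.07 (-0.56 without the GC trend).

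The 16 other YAP and TAZ target genes showed no common direction. PTPN14 is in this list and in that of Hippo kinases and scaffolds, and is counted in both. With resistance 4 rose and 7 fell in proficient cells (median -0.23, against -0.00), beside 25.9% and 27.8% of all genes. In deficient cells 5 rose and 6 fell (median 0.02, against 0.03), or 8 rose without the GC trend, beside 28.9% and 27.0% of all genes as tested. F3, the clotting initiator tissue factor, stood at 31.0 CPM in resistant proficient against 273 CPM in parental proficient cells (-3.14 ± 0.07, adjusted p = 2.31e-10). GADD45A, a stress-induced growth arrest gene, stood at 21.4 CPM in resistant proficient against 159 CPM in parental proficient cells (-2.90 ± 0.10, adjusted p = 3.34e-09). MYOF, a membrane repair ferlin, rose by 1.15 (adjusted p = 6.37e-08) and CCDC80, a matrix protein, by 1.29 (adjusted p = 1.19e-06). In deficient cells CCDC80 fell instead, to 0.188 CPM in resistant deficient, against 10.7 CPM in parental deficient cells (-5.77 ± 0.20, adjusted p = 7.75e-09), and NT5E, the ectoenzyme CD73, fell by 0.92 (adjusted p = 2.56e-06). IGFBP3, a secreted binder of insulin-like growth factors, rose to 699 CPM in resistant deficient, against 241 CPM in parental deficient cells (1.54 ± 0.06, adjusted p = 1.41e-08), and CRIM1 rose by 0.56 (adjusted p = 1.23e-05).

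Proficient over deficient cells had 7 of these 16 targets higher and 5 lower among parental lines (median 0.06), beside 32.3% and 30.1% of all genes. Among resistant lines 5 were higher and 9 lower (median -0.36), beside 36.3% and 37.5%. F3 stood at 31.0 CPM in resistant proficient against 701 CPM in resistant deficient cells (-4.50 ± 0.08, adjusted p = 6.91e-12), and IGFBP3 at 79.0 CPM in resistant proficient against 699 CPM in resistant deficient cells (-3.14 ± 0.06, adjusted p = 1.85e-11). Among parental lines F3 was at -1.45 and NT5E at -0.83, while TGFB2, a TGF-beta ligand, was higher at 2.25 and GADD45A at 1.37. In resistant lines TGFB2 was higher at 3.25, and CCDC80 at 8.49 against a group with 0.188 CPM. Interactions were positive for 5 and negative for 7 of the 16, beside 21.4% and 25.3% of all genes. CCDC80 was at 7.06, MYOF at 0.87, F3 at -3.05 and IGFBP3 at -2.95. Pairwise comparisons that share a group share its libraries, so their lists are not independent of each other.

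**Figure D5:**
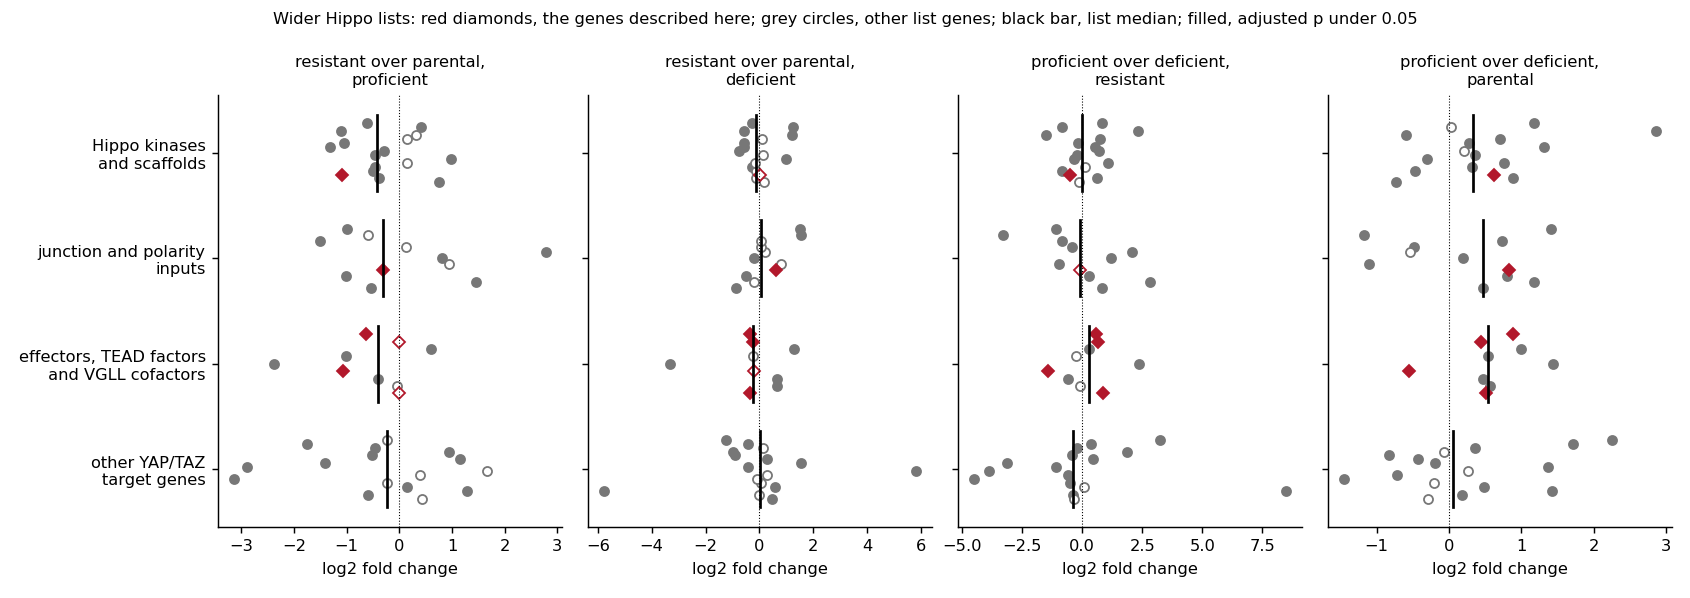
Log2 fold change of every gene of the 4 Hippo lists in the 4 pairwise comparisons (each panel with its own axis range); red diamonds are the genes described first, grey circles the other list genes, the black bar is the list median, and filled symbols passed an adjusted p of 0.05. List medians stay between -0.42 and 0.54, and in every list single genes lie on both sides of 0.

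The genes most like YAP1 over the 8 libraries, by the root mean square difference of row-centred log2 CPM among 11039 tested genes of at least 5 CPM, were IDH1 (0.0402), BTF3L4 (0.0419) and ANKRD49 (0.0450), set against a root mean square of 0.448 for YAP1 itself. IDH1 averaged 118 CPM in resistant proficient, 180.2 CPM in parental proficient, 79.9 CPM in resistant deficient and 101 CPM in parental deficient cells. Those most like CCN2 were SEPTIN6 (0.0551), ZNF778 (0.0573) and CAMTA1 (0.0633), against 0.323 for CCN2. SEPTIN6 averaged 31.6 CPM in resistant proficient, 27.7 CPM in parental proficient, 41.6 CPM in resistant deficient and 21.8 CPM in parental deficient cells. The 8 libraries form only 4 groups, so such likeness describes the order of 4 levels.

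Around YAP1 on chromosome 11, the 4 tested genes on each side were compared in the 4 pairwise comparisons, all of which called YAP1. Between resistant lines ARHGAP42 (2.55), CFAP300 (3.14), CNTN5 (1.57), CEP126 (1.18), BIRC2 (0.89) and TMEM123 (0.45) were higher in proficient cells. BIRC3 (-1.69) was lower there, and MMP10 (0.18) did not pass the test. Of all genes tested, 36.3% were higher and 37.5% lower between these lines. The neighbours' values between resistant lines were not checked with the GC trend removed or with libraries left out. YAP1 itself shrank there from 0.58 to 0.13 without the GC trend, and the transcripts of the higher neighbours hold 38.0 to 39.7% GC. BIRC2, an inhibitor of apoptosis, was higher with YAP1 in parental proficient cells, at 143 CPM against 72.6 CPM in parental deficient cells (0.98 ± 0.08, adjusted p = 2.07e-06), as were ARHGAP42 (1.66, adjusted p = 5.62e-06) and CFAP300 (1.05, adjusted p = 0.00285). BIRC3 (-0.58, adjusted p = 0.000758) and CNTN5 (-0.95, adjusted p = 0.0108) were lower, and CEP126 (0.26), TMEM123 (0.14) and MMP10 (-0.43) did not pass the test. Of all genes tested, 32.3% were higher and 30.1% lower between parental lines. Without the GC trend BIRC2 was at 0.59, CFAP300 at 0.66 and BIRC3 at -0.99 between these lines. CEP126 (-0.12) and TMEM123 (-0.23) turned, and TMEM123 was then called lower. With resistance in deficient cells, where YAP1 fell, 5 of the 8 also fell and 0 rose, beside 27.0% and 28.9% of all genes. They were CFAP300 (-2.03, adjusted p = 0.000207), CEP126 (-0.88, adjusted p = 0.00544), TMEM123 (-0.70, adjusted p = 4.00e-05), ARHGAP42 (-0.57, adjusted p = 0.0153) and BIRC2 (-0.29, adjusted p = 0.0115). Without the GC trend CEP126 was at -0.59 and TMEM123 at -0.41, both still called, while BIRC2 (0.02, adjusted p = 0.775) and ARHGAP42 (-0.26, adjusted p = 0.122) were not, and BIRC3, at 0.14 as tested, was called at 0.54. Without the second parental deficient library the calls of BIRC2 (adjusted p = 0.0513) and ARHGAP42 (0.0848) were lost, as was that of ARHGAP42 without the first resistant deficient library (0.0678). With resistance in proficient cells 3 of the 8 fell, where 27.8% of all genes fell and 25.9% rose. They were the 3 nearest on one side: BIRC3 by 0.96 (adjusted p = 3.68e-05), BIRC2 by 0.39 (adjusted p = 0.00215) and TMEM123 by 0.39 (adjusted p = 0.00181). The BIRC2 call there was lost without the first parental proficient library (adjusted p = 0.0602). CNTN5 rose there by 2.24 (adjusted p = 3.01e-05), and CFAP300 (0.06), CEP126 (0.04), ARHGAP42 (0.31, adjusted p = 0.104) and MMP10 (0.97) did not pass the test. ARHGAP42 was called there under 5 alternatives, at 0.32 to 0.37.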

How the data were processed

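The authors deposited raw counts of reads per gene symbol for 8 libraries. Per the submitters' processing notes, build GRCh37 and the tools DESeq2 1.24.0, featureCounts, Subread 2.0.1 and Trimmomatic 0.39 were used, with no role stated. No source used here gives the annotation, the strand setting or the handling of multiply mapped reads, so antisense reads cannot be told apart. Libraries were grouped by their titles, and no 2 replicates were alike within sampling noise (chi-square per degree of freedom 4.21 to 22.5).

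From the deposited counts, edgeR 4.0.16 in R 4.3.3 (TMM, filterByExpr, quasi-likelihood test) fitted all 8 libraries at once with 4 residual degrees of freedom. Adjusted p-values are Benjamini-Hochberg over 16221 genes, and a call is an adjusted p under 0.05. An SE is the log2 fold change divided by the square root of F, and 95% intervals use 4 degrees of freedom. The p-values use further degrees of freedom that edgeR borrows across genes. The intervals are therefore wider than the tests imply, and can hold 0 for a called gene. Alternatives were RLE factors, library totals alone, other filters, DESeq2 1.42.0, the 2 groups alone, a replicate block, removal of the GC trend (natural spline, 5 degrees of freedom) and each library left out. GC content and length came from the longest GENCODE v29 transcript (96.6% of genes tested).

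Named list genes were up to 2 per list, direction and comparison with the smallest adjusted p and at least 1 CPM in the higher group. Genes, lists and rules were chosen with earlier results of these data known. Replicate numbers were not used to pair the samples in the main fit. Gene order and promoters came from RefSeq GRCh38.p14, and no position was converted between builds.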

Additional observations from a re-analysis of the deposited data

Results flagged for a closer look

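For 7 of the 10 genes the change with resistance differed between the backgrounds by the test of the difference itself, proficient minus deficient (edgeR). On the log2 scale the differences were -4.12 for AXL, -1.12 for LATS2, -0.93 for AMOTL2, -0.87 for TEAD4, -0.70 for CCN2, -0.29 for YAP1 and 0.35 for TEAD1. Of all genes tested, 21.4% had a positive and 25.3% a negative difference past the same threshold. The YAP1 and TEAD4 calls did not hold when most single libraries were left out. Without the GC trend TEAD1 was at 0.10 and TEAD4 at -0.27, and neither was called. AMOTL2 fell in proficient and rose in deficient cells, as did AXL. The AMOTL2 fall and the AXL rise were each lost under some alternatives. CCN2 rose in both, YAP1 fell in both, and LATS2 and TEAD4 were called in proficient cells alone, TEAD1 in deficient cells alone. Groups of 2 libraries are too small for a test of single outlying libraries.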

How the results depend on the processing

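Values of the 10 genes, and counts called among them and among all genes, were recomputed under 17 alternatives (16 for the interaction). So were the named list genes, LATS2 neighbours with resistance, and YAP1 neighbours with resistance and between parental lines, where a setting kept the gene. Counts over the lists were recomputed only with RLE factors, library totals alone and GC removal. List medians, likeness and levels per kilobase were not recomputed. Of the values of single genes, 2600 kept their direction and their side of the threshold, 65 lost a call, 21 gained one and 64 turned direction. Of the counts, 440 stayed within 1.5 times and 16 did not.

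Removal of the GC trend turned WWTR1 (0.028), LATS2 (-0.0026), XPO4 (0.32), SKA3 (0.12), CNTN5 (0.0032) and BIRC2 (0.019) in resistant over parental deficient cells, TEAD4 (0.083), CEP126 (-0.12) and TMEM123 (-0.23) in proficient over deficient parental cells, AMOTL2 (0.61) and TEAD3 (0.53) in proficient over deficient resistant cells, and WWTR1 (-0.033) and ANKRD1 (-0.13) in the interaction. With the replicate block and GC removal together, WWTR1 (0.029), LATS2 (-0.0026), XPO4 (0.32), SKA3 (0.12), CNTN5 (0.0078) and BIRC2 (0.019), TEAD4 (0.083), CEP126 (-0.12) and TMEM123 (-0.23), AMOTL2 (0.61) and TEAD3 (0.53), and WWTR1 (-0.033) and ANKRD1 (-0.13) turned in those comparisons too. WWTR1 in resistant over parental proficient cells turned to 0.022 with RLE factors, 0.041 with library totals alone, 0.019 without a filter, 0.034 with the filter of at least 1 CPM and 0.022 with DESeq2. In resistant over parental deficient cells XPO4 turned to 0.0095 with RLE factors and DESeq2 and 0.00043 with library totals alone, and SAP18 to -0.0018 without a filter, -0.00078 with the 1 CPM filter and -0.013 with the 2 groups alone. GC removal also left 0 genes in place of 1 called up in the interaction, alone and with the block, where the 1 CPM filter gave 3. Of list counts with GC removal, Hippo kinases and scaffolds called up with resistance went to 7 in deficient cells (3 as tested) and 6 in proficient cells (3), and those lower in parental proficient cells to 2 (4). Junction genes lower in resistant proficient over deficient cells went to 3 (5). Effectors, TEAD factors and VGLL cofactors went to 1 up (3) in resistant over parental deficient cells, 0 down (1) between parental and 1 down (2) between resistant lines, and 1 up (2) in the interaction. Other targets called up in resistant over parental deficient cells went to 8 (5).

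Leaving out single libraries gave -0.044 to 0.089 for LATS2, -0.61 to 0.070 for TEAD4, -0.33 to -0.15 for WWTR1, -0.10 to 0.033 for XPO4, -0.091 to 0.058 for SAP18 and -1.64 to 1.06 for MMP10 in resistant over parental deficient cells. In resistant over parental proficient cells it gave -0.032 to 0.073 for WWTR1, -0.048 to 0.081 for TEAD1, -0.77 to 0.65 for IL17D, -0.31 to 0.76 for LOC101928764, -0.15 to 0.30 for CEP126, -0.034 to 0.18 for CFAP300 and -0.32 to 0.27 for IFT88. It gave -1.70 to 0.29 for MMP10 between parental lines and -0.22 to 0.091 for AMOTL2 between resistant lines. Of the 10 genes, 1 to 2 were called up in the proficient resistance comparison (1 without the second parental proficient library) and 1 to 2 in the interaction (2 without either resistant deficient library or the second resistant proficient one).

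Deviations of same-numbered libraries correlated at -0.132 to 0.212 between groups, highest between the resistant groups. A weak shift shared by number is therefore possible there, and the main fit did not pair libraries by number. With the number as a replicate block, 8 of the 10 genes were called in resistant over parental deficient cells, as without it. The cause of these shifts was not tested. With 2 libraries per group the precision is limited, and TEAD4 in resistant deficient cells, at 16.5 and 26.4 CPM, had the widest spread of the 10 genes relative to its mean.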

Other observations

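These values were chosen after AXL had been seen and carry no test. The AXL ligand GAS6 averaged 55.2 ± 12.1 CPM in resistant proficient, 39.9 ± 4.78 CPM in parental proficient, 110.2 ± 27.8 CPM in resistant deficient and 55.7 ± 7.17 CPM in parental deficient cells (SD, n = 2 each). PROS1, the other TAM ligand, averaged 117 ± 6.09 CPM in resistant proficient, 67.2 ± 1.98 CPM in parental proficient, 35.4 ± 2.28 CPM in resistant deficient and 52.9 ± 1.75 CPM in parental deficient cells. Of the sister receptors, TYRO3 averaged 8.57 CPM in resistant proficient, 8.51 CPM in parental proficient, 25.2 CPM in resistant deficient and 16.8 CPM in parental deficient cells. MERTK averaged 20.0 CPM in resistant proficient, 33.7 CPM in parental proficient, 18.8 CPM in resistant deficient and 23.0 CPM in parental deficient cells.

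Beside AXL on chromosome 19, CYP2S1, a cytochrome P450 gene, averaged 1.77 CPM in resistant proficient, 0.449 CPM in parental proficient, 84.0 CPM in resistant deficient and 38.0 CPM in parental deficient cells. TGFB1, the gene of TGF-beta 1, averaged 4.97 CPM in resistant proficient, 5.86 CPM in parental proficient, 33.5 CPM in resistant deficient and 21.5 CPM in parental deficient cells. HNRNPUL1, the next gene on the other side of AXL from CYP2S1, averaged 276 to 333 CPM over the 4 groups. CCDC97, which lies between HNRNPUL1 and TGFB1, averaged 18.3 CPM in resistant proficient, 16.2 CPM in parental proficient, 23.0 CPM in resistant deficient and 19.5 CPM in parental deficient cells. SNRPA averaged 47.3 CPM in resistant proficient, 64.5 CPM in parental proficient, 87.4 CPM in resistant deficient and 78.1 CPM in parental deficient cells. ITPKC averaged 9.45 CPM in resistant proficient, 15.3 CPM in parental proficient, 8.16 CPM in resistant deficient and 12.03 CPM in parental deficient cells. CYP2T1P averaged 0.625 to 0.760 CPM over the groups, and B9D2 0.0867 CPM in resistant proficient, 0.109 CPM in parental proficient, 0.815 CPM in resistant deficient and 0.367 CPM in parental deficient cells. Unlike AXL, CYP2S1 was at a higher mean in resistant proficient than in parental proficient cells.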
